A study of Mus musculus with 9 samples.

Results

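The genes *H1f0*, *Sfpq*, *Rad21*, *Kdm2b*, *Sinhcaf* and *Zfp395* encode proteins that package chromatin, modify it or act on transcription in the nucleus. They were taken by name as 6 of the 98 genes in the deposited table of bulk RNA from healing mouse alveolar bone, the bone that holds the teeth. That table lists genes that the authors had selected for a difference between the study groups at an adjusted p under 0.1. The group difference therefore chose these 6 genes, and it is given below as a description with no test. All 6 passed the minimum mean of 3 counts, as did 97 of the 98 genes.

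The study extracted a maxillary first molar from male C57BL/6 mice aged 8 weeks and examined the socket 2 weeks later. In the Spon. Healing group (4 libraries) the socket healed without a graft. In the Allograft group (5 libraries) it was filled with lyophilised bone from the femur and tibia of other C57BL/6 mice and received saline. Both groups carried the same surgical defect, and the sequenced RNA came from pulverised maxillae, which the labels call alveolar bone. The labels number the libraries but do not tie each to an animal, so the spread between libraries may be partly technical.

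The libraries were made by CEL-Seq2, a method that reads the 3′ ends of polyadenylated RNA, from 2 ng of RNA each. The normalized counts used here are raw counts divided by the authors' size factor for the library, which ran from 0.577 to 2.20. The median size factor was 0.741 in Spon. Healing and 1.176 in Allograft. Total depth is not known here, because the table holds only selected genes. Of 66 marker symbols for bone, cartilage, blood, vessel, epithelial, muscle and nerve cells, 0 were in the table, so the labelled tissue could not be checked against its markers. In bulk tissue, fewer cells of a type and less RNA per cell cannot be told apart.

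DNA in the nucleus is wound on nucleosomes, closed by linker histones, folded into loops by the cohesin ring, and marked by enzymes that add or remove acetyl and methyl groups. Polycomb complexes and SIN3-histone deacetylase complexes use such marks to hold genes at low activity. In bone repair, the cells of the socket pass from proliferation to matrix production, and chromatin state is part of how such cells keep or change their identity.

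Promoter sequences from RefSeq on the GRCm38.p6 build, running from 250 bases before to 50 bases after an annotated transcription start, were found for 4 of the 6 genes, with 8 windows in all. *Rad21* and *Zfp395* were not matched. Both strands were searched for 7 motifs. They were the GC box, spelled GGGCGG, the CCAAT box, named by its letters, and the TATA box, spelled TATAAA. The E-box was spelled CACGTG, and the core site for cyclic AMP response factors was taken as TGACG. The core of the hypoxia response element was taken as ACGTG, and the H1 box of histone promoters as AAACACA. An E-box always contains the hypoxia core, and the hypoxia core can overlap the cyclic AMP site. The sequences are written 5′ to 3′ on the coding strand, with matches on either strand in capitals. They are shown because the genes that were lower in Allograft (*H1f0*, *Kdm2b*) and those that were higher (*Sfpq*, *Sinhcaf*) can then be set side by side. For *Kdm2b*, the windows of 2 separate starts are given, since they belong to a long and a short form.

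H1f0, chr15:79027962-79028261, plus strand: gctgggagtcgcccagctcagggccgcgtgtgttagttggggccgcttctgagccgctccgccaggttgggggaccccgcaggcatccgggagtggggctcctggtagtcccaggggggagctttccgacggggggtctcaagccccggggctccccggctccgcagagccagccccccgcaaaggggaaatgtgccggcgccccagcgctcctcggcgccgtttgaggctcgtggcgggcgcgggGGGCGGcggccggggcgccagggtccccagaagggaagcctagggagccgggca
Kdm2b upstream start, chr5:122989050-122989349, minus strand: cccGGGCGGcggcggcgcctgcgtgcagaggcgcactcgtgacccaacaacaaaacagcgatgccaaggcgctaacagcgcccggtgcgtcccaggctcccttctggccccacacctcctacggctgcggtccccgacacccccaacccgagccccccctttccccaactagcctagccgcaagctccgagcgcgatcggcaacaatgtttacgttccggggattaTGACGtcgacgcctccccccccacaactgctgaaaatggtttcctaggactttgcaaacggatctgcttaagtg
Kdm2b internal start, chr5:122900301-122900600, minus strand: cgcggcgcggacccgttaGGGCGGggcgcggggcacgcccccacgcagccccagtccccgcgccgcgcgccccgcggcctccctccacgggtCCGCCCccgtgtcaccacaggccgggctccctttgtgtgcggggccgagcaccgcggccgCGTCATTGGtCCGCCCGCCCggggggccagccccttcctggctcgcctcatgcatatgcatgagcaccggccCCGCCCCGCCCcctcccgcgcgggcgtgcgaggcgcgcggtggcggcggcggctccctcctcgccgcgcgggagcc
Sfpq, chr4:127021051-127021350, plus strand: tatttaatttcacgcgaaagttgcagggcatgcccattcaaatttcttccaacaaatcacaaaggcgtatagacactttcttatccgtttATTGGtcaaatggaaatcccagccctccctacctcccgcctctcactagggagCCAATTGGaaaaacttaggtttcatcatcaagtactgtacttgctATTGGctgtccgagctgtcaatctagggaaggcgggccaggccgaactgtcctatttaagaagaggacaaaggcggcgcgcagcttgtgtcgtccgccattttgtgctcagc
Sinhcaf upstream start, chr6:148946421-148946720, minus strand: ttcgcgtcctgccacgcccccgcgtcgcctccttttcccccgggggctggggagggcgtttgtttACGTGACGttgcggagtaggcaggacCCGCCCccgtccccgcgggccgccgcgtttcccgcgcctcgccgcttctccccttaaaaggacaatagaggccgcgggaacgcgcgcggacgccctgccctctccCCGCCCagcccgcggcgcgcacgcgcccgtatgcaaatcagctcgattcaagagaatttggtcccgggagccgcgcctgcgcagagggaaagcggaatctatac

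The printed windows differed in composition. The *H1f0* window was 75.0% G and C and held 1 GC box, 4 bases before its RefSeq start at position -4. That start (79028212) precedes the gene start of 79028450 in the annotation of the counts, and the window ends at 79028261. The bases just before 79028450 were therefore not searched. The *Sfpq* window was the only one printed below the median of all windows, with 48.0% G and C against a median of 52.7%. It held no GC box but 4 CCAAT matches, at positions -160, -107, -104 and -62, of which those at -107 and -104 overlapped on opposite strands. The internal *Kdm2b* window was the richest, with 81.7% G and C, 6 GC boxes, 1 CCAAT and 1 TGACG, and a higher G and C content than 99.4% of all windows. The upstream *Kdm2b* window held 1 GC box at -247 and 1 TGACG at -24. The upstream *Sinhcaf* window held GC boxes at -159 and -54 and a TGACG at -182 that overlapped an ACGTG at -185.

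Of the 32851 windows in the RefSeq table, 35.7% held a GC box, 37.4% a CCAAT, 20.8% a TGACG and 19.6% an ACGTG. The 84 windows of the listed genes held them more often, with 73.8% for the GC box, 51.2% for CCAAT, 41.7% for TGACG and 33.3% for ACGTG, and had a median G and C content of 64.3%. The full set was not limited to genes detected in these libraries, so the sets are unlike and nothing is read from this difference. The remaining motifs, TATAAA (13.6% of all windows), CACGTG (7.15%) and AAACACA (7.18%), had no match in any of the 8 windows. For *H1f0* this leaves out the bases just before 79028450, which its window did not reach. A match describes the letters and not the binding of a factor, and no motif was found in all 4 genes. The GC box was present in a window of *H1f0*, *Kdm2b* and *Sinhcaf*, which differed between the groups in opposite directions.

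**Figure D1:**
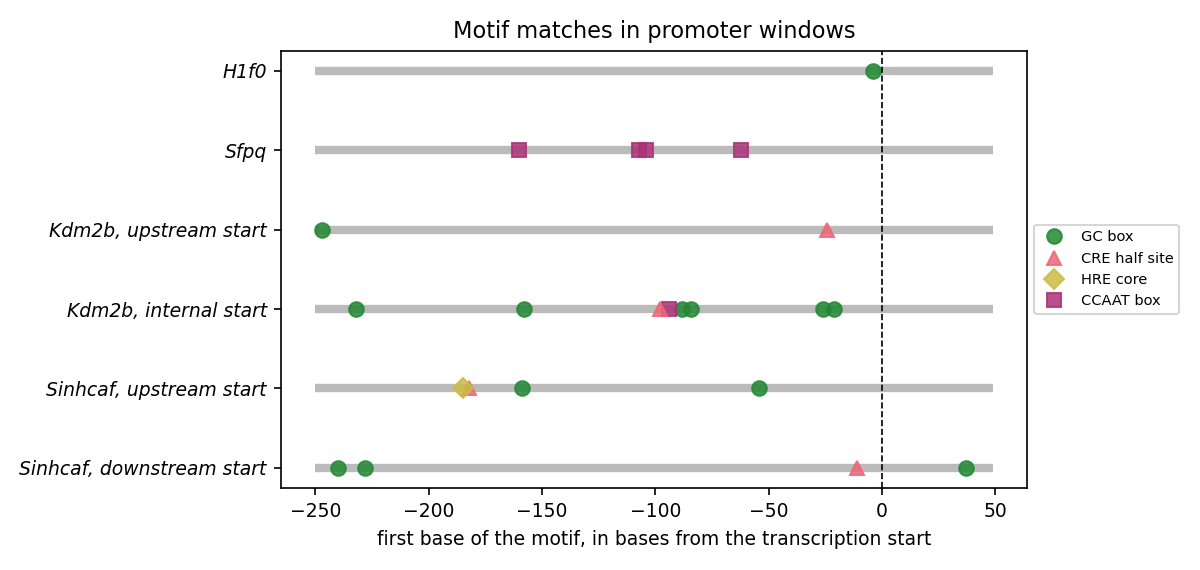
Motif matches in 6 promoter windows of *H1f0*, *Sfpq*, *Kdm2b* and *Sinhcaf*; the x axis is the distance in bases from the transcription start (dashed line), each grey bar is 1 window and each symbol is the first base of 1 match. The *Sfpq* window shows 4 CCAAT matches and no GC box, and the internal *Kdm2b* window shows 6 GC boxes.

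The comparison of Allograft with Spon. Healing asked how gene activity in grafted sockets differed from that in sockets that healed on their own. In normalized counts, *Sfpq*, *Rad21*, *Sinhcaf* and *Zfp395* were higher in Allograft and *H1f0* and *Kdm2b* were lower. The means differed by 1.25-fold for *Rad21* up to 1.81-fold for *Zfp395*. In 6 of 6 genes the Allograft libraries all lay on 1 side of the Spon. Healing libraries. Over the tested genes of the table the same held for 74.2%, and since the table was selected on this contrast nothing is read from either figure. By direction, non-overlapping genes made up 53.6% of the tested genes for higher and 20.6% for lower values in Allograft.

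*H1f0* encodes H1.0, a linker histone made outside S phase that accumulates in cells that have stopped dividing. The gene has the identifier ENSMUSG00000096210, lies at chr15:79028450-79030504 on the plus strand (GRCm38) and has 1 exon coding for 194 residues. In replicates 1 to 4 of the ungrafted group, Spon. Healing, the normalized counts were 1067, 1279, 1307 and 1151. Those of Allograft replicates 1 to 5 were 883, 838, 833, 906 and 882. Each Allograft library was below each Spon. Healing library, with a gap of 161 between Allograft replicate 4 and Spon. Healing replicate 1. The means were 1201 ± 112 (SD, n = 4) and 868 ± 31.7 (SD, n = 5), which is 1.38-fold lower in Allograft, with a fitted log2 fold change of -0.47 (SE 0.10). The coefficient of variation (CV, the SD as a percent of the mean) of *H1f0* in Allograft was 3.66%, and 1 of 97 tested genes had a lower one. With TMM factors over the listed genes, another way of scaling the libraries, it was 7.97%, and 8 genes had a lower one. A small fold passes a selection by adjusted p more readily when the spread is low, so nothing is read from these ranks.

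*Kdm2b* encodes a lysine demethylase of histone H3 with a zinc finger that binds unmethylated CpG islands and brings a Polycomb complex, PRC1.1, to them. The gene (ENSMUSG00000029475, chr5:122870665-122989823, minus strand) has 20 annotated transcripts, 8 of them protein coding. Sockets healing on their own gave normalized counts of 189.7, 151, 261 and 206 in replicates 1 to 4. Grafted sockets, replicates 1 to 5, gave 90.3, 138, 139, 121 and 103. The highest Allograft library, replicate 3, was 12.0 normalized counts below the lowest Spon. Healing library, replicate 2, which is close to the counting error of 10.3 for that Spon. Healing library. The means were 202 ± 45.6 (SD, n = 4) and 118 ± 21.6 (SD, n = 5), or 1.71-fold lower in Allograft, and the fitted log2 fold change was -0.76 (SE 0.21).

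The long form of *Kdm2b* starts at 122989099 and codes for 1309 residues, whereas the short form starts inside the gene at 122900355 and codes for 776 residues without the demethylase domain. Both end within 50 bases of the same 3′ end, together with other coding transcripts, 4 in all. Counts of 3′ reads therefore do not separate the long form from the short one. In Spon. Healing, *Kdm2b* also varied the most of the 6 genes, with a CV of 22.6%.

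*Sfpq* encodes a splicing factor of the DBHS family that pairs with NONO, binds DNA and RNA and is a core protein of paraspeckles, bodies in the nucleus built on a long noncoding RNA. The gene (ENSMUSG00000028820, chr4:127021324-127037013, plus strand) has 6 transcripts, and its protein-coding one has 10 exons and 699 residues. The Spon. Healing libraries, in the order of replicates 1 to 4, held 887, 1174, 889 and 948 normalized counts. In Allograft replicates 1 to 5 they were 1420.1, 1508, 1562, 1287 and 1253. Every Allograft library was above every Spon. Healing library, and the nearest pair was Spon. Healing replicate 2 and Allograft replicate 5, which were 78.4 apart. The means were 975 ± 136 (SD, n = 4) and 1406 ± 135 (SD, n = 5), or 1.44-fold higher in Allograft, with a fitted log2 fold change of 0.53 (SE 0.12).

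*Rad21* encodes the kleisin subunit that closes the cohesin ring, which holds sister chromatids together and forms chromatin loops. The gene (ENSMUSG00000022314, chr15:51962240-51991747, minus strand) has 2 transcripts, and the longest codes for 635 residues over 14 exons. Normalized counts of *Rad21* in the ungrafted replicates 1 to 4 were 604, 694, 589.9 and 633. The grafted replicates 1 to 5 had 793, 699, 816, 825 and 797. Here the groups only just failed to overlap, since Spon. Healing replicate 2 (693.8) and Allograft replicate 2 (698.6) differed by 4.80, less than their counting errors of 21.95 and 28.2. The means were 630.1 ± 46.0 (SD, n = 4) and 786 ± 50.6 (SD, n = 5), or 1.25-fold higher in Allograft, the smallest fold of the 6 genes, with a fitted log2 fold change of 0.32 (SE 0.11).

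*Sinhcaf*, also called *Fam60a*, encodes a subunit of the SIN3-histone deacetylase complex, which removes acetyl groups from histones. The gene (ENSMUSG00000039985, chr6:148921035-148946467, minus strand) has 12 transcripts, and the longest protein has 221 residues. Without a graft, replicates 1 to 4 had normalized counts of 50.8, 54.2, 59.6 and 38.1. In Allograft replicates 1 to 5 they were 93.3, 103, 83.2, 98.99 and 79.0. The groups were separate, with Allograft replicate 5 at 79.0 and Spon. Healing replicate 3 at 59.6 as the nearest pair. The means were 50.7 ± 9.12 (SD, n = 4) and 91.4 ± 10.1 (SD, n = 5), or 1.80-fold higher in Allograft, with a fitted log2 fold change of 0.84 (SE 0.22). Its raw counts were low, between 22 and 78 (Spon. Healing) and between 61 and 218 (Allograft).

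*Zfp395* is the mouse counterpart of human ZNF395, a DNA-binding zinc finger factor whose RNA rises in human cells under low oxygen. The gene (ENSMUSG00000034522, chr14:65358389-65398930, plus strand) has 5 transcripts, with 508 residues in the longest protein. Normalized counts in the Spon. Healing libraries (replicates 1 to 4) were 229.6, 233, 228 and 217. With a graft, replicates 1 to 5 had 494, 297, 422, 363 and 480.2. The Spon. Healing libraries lay close together and the Allograft libraries were all above them but widely spread. The means were 227 ± 7.19 (SD, n = 4) and 412 ± 82.2 (SD, n = 5), or 1.81-fold higher in Allograft, and the fitted log2 fold change was 0.86 (SE 0.17).

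**Figure D2:**
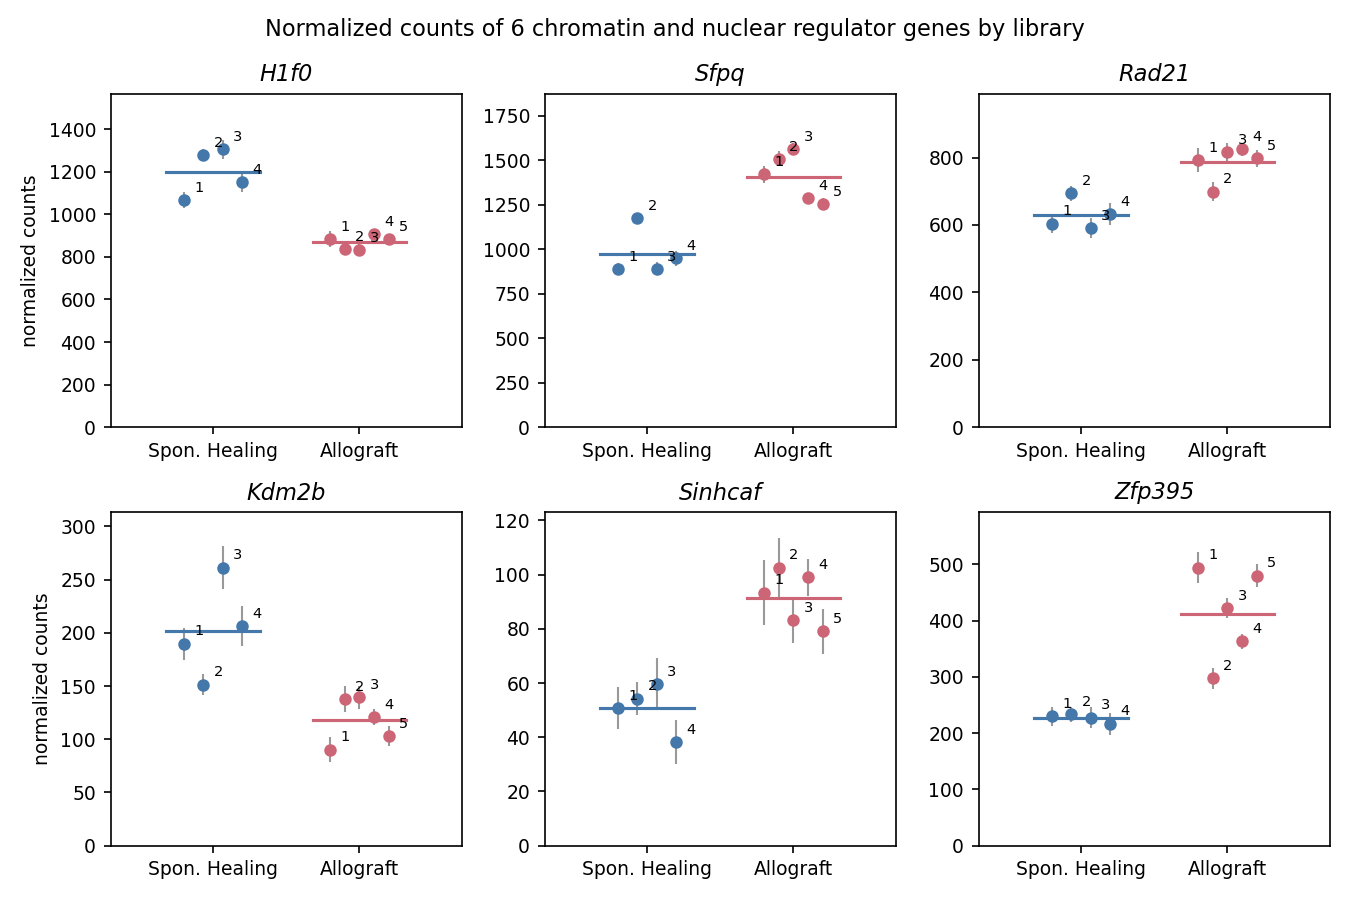
Normalized counts (y axis, starting at 0) of the 6 genes in each library of Spon. Healing (blue) and Allograft (red); grey bars are 1 counting SD, horizontal lines are group means and the small digits are replicate numbers. *Zfp395* is tight in Spon. Healing (217 to 233) and spread in Allograft (297 to 494), and the *Rad21* groups come within 4.80 normalized counts of each other.

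The 6 genes were not the extremes of the table. The median log2 fold change of the 97 tested genes was 0.46, with 65 genes higher in Allograft and 32 lower. Ordered by size among the genes of the same direction, *Zfp395* was 12th and *Sinhcaf* 13th of 65, *Sfpq* was 36th and *Rad21* was 64th. Among the 32 lower genes, *Kdm2b* was 23rd and *H1f0* was 30th. Thus *H1f0* and *Rad21* were listed at small folds compared with most genes of their direction.

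These values depend on how the libraries were scaled. Scaling by TMM factors computed over the listed genes lowered the log2 fold change of the tested genes by a median of 0.31 (a shift of -0.31), and *Rad21* came to 0.01 (SE 0.11), which is within 1 SE of 0. The number of the 6 genes with no overlap between groups was then 3 (*H1f0*, *Kdm2b* and *Sinhcaf*). The share over all tested genes was not computed with these factors, so nothing is read from that count. TMM takes most genes as unchanged, which a table of genes selected for change does not meet.

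**Figure D3:**
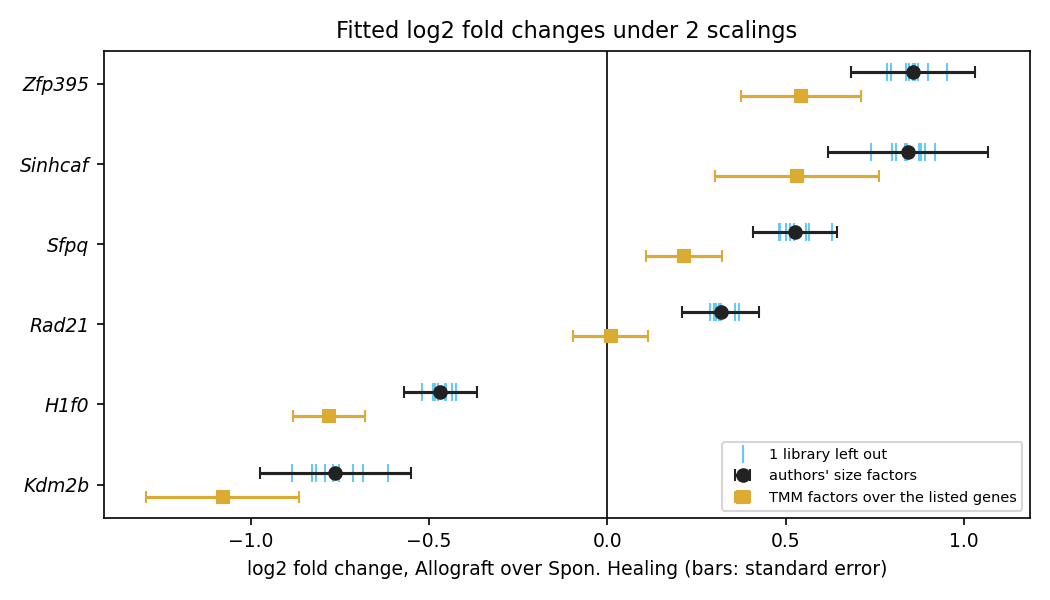
Fitted log2 fold changes of Allograft over Spon. Healing (x axis, bars are standard errors) for the 6 genes under the authors' size factors (black) and TMM factors over the listed genes (yellow), with light blue ticks for fits that left out 1 library. The TMM values all lie to the left of the others, and that of *Rad21* sits at 0.01.

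Ratios between 2 genes in 1 library do not depend on the scaling, and they were compared after the values had been seen. Raw counts of *Sinhcaf* per count of *Kdm2b* were 0.268, 0.358, 0.228 and 0.185 in Spon. Healing replicates 1 to 4. In Allograft replicates 1 to 5 they were 1.03, 0.744, 0.596, 0.820 and 0.769. The groups did not overlap, and the median was 0.248 against 0.769. *Zfp395* per *H1f0* was 0.174 to 0.215 in Spon. Healing and 0.355 to 0.560 in Allograft, with medians of 0.185 and 0.507. *Rad21* per *H1f0* was 0.451 to 0.566 in Spon. Healing and 0.834 to 0.980 in Allograft. This ratio does not show which of its genes differed, so it says nothing of *Rad21* alone.

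Of the 8 pairs that joined a higher with a lower gene, 8 had ratios with no overlap between groups, and 90.4% of such pairs did among all tested genes. Of the 7 pairs of the same direction, 1 had none, *Rad21* with *Zfp395*, against 5.43% of such pairs among all tested genes. Counts of *Rad21* per count of *Zfp395* were 2.59 to 2.97 in Spon. Healing and 1.60 to 2.35 in Allograft. *H1f0* per *Kdm2b* overlapped, at 5.00 to 8.44 and 5.97 to 9.78, as did *Sfpq* per *Rad21*, at 1.47 to 1.69 and 1.56 to 2.16. These shares follow from a selection on the same contrast and nothing is read from them.

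**Figure D4:**
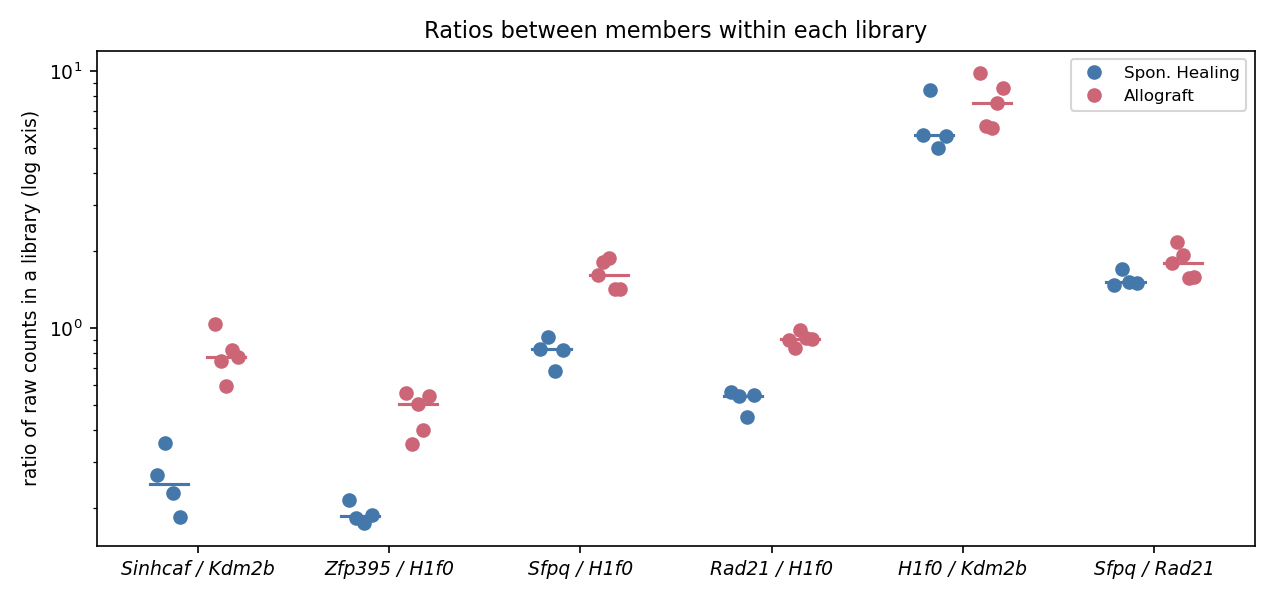
Ratios of raw counts of 2 genes within a library (y axis, logarithmic) for 6 pairs, with Spon. Healing in blue, Allograft in red and lines at the medians. The 4 pairs on the left, *Sinhcaf* per *Kdm2b* and *Zfp395*, *Sfpq* and *Rad21* per *H1f0*, show no overlap, and the 2 on the right, *H1f0* per *Kdm2b* and *Sfpq* per *Rad21*, overlap.

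The spread within a group was set beside the spread that counting alone would give. The median CV of the 6 genes was 11.6% in Spon. Healing and 10.3% in Allograft, and that of all tested genes was 16.2% and 16.1%. A selection by adjusted p favours genes with little spread, the more so at a small fold. Nothing is therefore read from these medians. *Sinhcaf* varied about as much as its counts allowed, with a variance of 1.30 times the counting variance in Spon. Healing and 1.15 times in Allograft. *Zfp395* had a CV of 3.17% in Spon. Healing, with a variance of 0.178 times the counting variance, and 19.98% in Allograft, with 16.8 times. With 4 libraries a spread below counting error is a description of these libraries, and the difference in spread was not tested. The CV of *Rad21* moved with the scaling, and under TMM it was 4.34% in place of 7.30% for Spon. Healing and 11.2% in place of 6.44% for Allograft. *Sfpq* had 15.2 and 13.3 times the counting variance in the 2 groups, the highest in Spon. Healing.

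The choice of genes by adjusted p used the group difference and the spread of each gene, but not whether genes varied together within groups. The deviation of log2(normalized count + 1) from the group mean was correlated for each of the 15 pairs over the 9 libraries, with an exact two-sided permutation test within groups and Benjamini-Hochberg adjustment over the 4656 pairs of tested genes. The median Pearson r was 0.07, with 8 of 15 pairs positive. The number of pairs with an unadjusted p under 0.05 was 0, and 0 passed after adjustment. Over all 4656 pairs of the table the median r was 0.02, with 2414 pairs positive. The unadjusted share was 8.59% there and 0% passed after adjustment. At 9 libraries only strong covariation could be detected, so this does not show that the genes vary independently.

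Of the 3 pairs with the largest r in size, 2 changed sign when libraries were left out. *Rad21* with *Kdm2b* had r = -0.58 and Spearman rho = -0.13 (exact permutation p = 0.146 and 0.812, adjusted p = 0.734 and 0.977), and r became 0.09 without the 2 libraries farthest from the median of *Rad21*. *Rad21* with *Zfp395* had r = 0.50 and rho = 0.13 (exact permutation p = 0.202 and 0.812, adjusted p = 0.774 and 0.977), and r became -0.66 without its 2 farthest libraries. Both *Rad21* relations rest on those libraries. *Kdm2b* with *Zfp395* had r = -0.56 and rho = -0.73 (exact permutation p = 0.109 and 0.0646, adjusted p = 0.692 and 0.676) and r = -0.45 without its 2 farthest libraries, so that it stayed negative but did not pass the threshold.

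**Figure D5:**
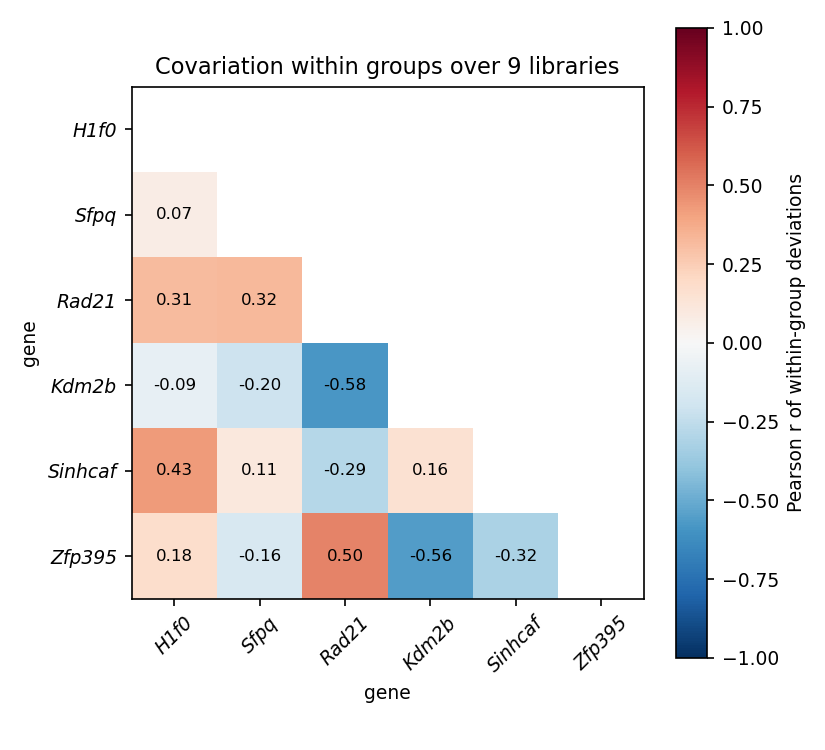
Pearson r of within-group deviations over 9 libraries for the 15 pairs of the 6 genes, on a color scale from -1 to 1. The values range from -0.58 (*Rad21* with *Kdm2b*) to 0.50 (*Rad21* with *Zfp395*), and 8 of 15 are positive.

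For each gene the 2 tested genes with the highest within-group r were named. *Rad21* was closest to *Tab2*, an adaptor of the TAK1 kinase, with r = 0.86 and rho = 0.93 (exact permutation p = 0.00451 and 0.00556, adjusted p = 0.359 and 0.446) and r = 0.61 without its 2 farthest libraries. Its next gene was *Carf*, a calcium-responsive transcription factor, with r = 0.76. *H1f0* was closest to *Tfg* (r = 0.70) and *Acrbp* (r = 0.66), and *Sfpq* to the amino acid transporter *Slc38a2* (r = 0.66) and *Tmem51* (r = 0.62). *Kdm2b* was closest to the centrosomal gene *Cep57* (r = 0.73) and the interleukin-33 receptor *Il1rl1* (r = 0.64), *Sinhcaf* to *St13* (r = 0.57) and *Sema3c* (r = 0.54), and *Zfp395* to *Tspan4* (r = 0.70) and *Snx3* (r = 0.60). None of the 12 pairs passed the adjusted threshold, and none of the neighbours came from the 6 genes.

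The lists of related genes held no further member. Of 10 annotated linker histone symbols only *H1f0* was listed, and replication-dependent linker histone RNAs generally lack the poly(A) tail that CEL-Seq2 reads. Of 19 cohesin genes only *Rad21* was listed, of 22 Polycomb genes only *Kdm2b* and of 20 SIN3-histone deacetylase genes only *Sinhcaf*. Of 18 DBHS and paraspeckle genes only *Sfpq* was listed, and of 21 relatives of *Zfp395* and hypoxia targets only *Zfp395*. None of 42 further chromatin remodellers and histone modifiers was listed, and none of 19 replication and mitosis genes. Since the table holds selected genes alone, a gene that is not listed has no value here, and no change in its group can be read from its absence.

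In the Gene Ontology terms deposited with the table, 6 of the 6 genes carried the term nucleus, as did 32 of the 98 listed genes (32.7%). DNA binding was given to *H1f0*, *Sfpq*, *Kdm2b* and *Zfp395*, 4 of the 11 listed genes with that term (11.2% of the table). *H1f0*, *Rad21* and *Kdm2b* carried the term chromosome, as 3 of 7 listed genes. *H1f0*, *Sfpq* and *Kdm2b*, which differed in opposite directions between groups, carried negative regulation of transcription by RNA polymerase II, as 3 of 9 listed genes.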

How the data were processed

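The authors trimmed CEL-Seq2 reads with cutadapt (quality 10, at least 28 nt), aligned them to GRCm38 with Ensembl release 99 annotation by TopHat (up to 2 mismatches) and used htseq-count for strand-specific gene counts (mapping quality at least 10); versions are not given in the sources used here. The authors state that DESeq2 was then run for genes averaging at least 3 counts, with its independent filter turned off. Of the 98 deposited genes, 97 reached that mean over the libraries used here. The deposited table holds raw counts and a normalized signal (counts divided by 1 size factor per library) for 98 genes with an adjusted p under 0.1, and the authors' fold changes and p-values, which were not used.

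The 97 genes that averaged at least 3 counts over the libraries were fitted by edgeR 4.0.16 under R 4.3.3 (quasi-likelihood, no covariates, scaled by the deposited size factors); no p is given for the group contrast, which chose the genes. Covariation used a pseudocount of 1 and all 2880 reorderings within groups, with a smallest possible p of 0.000347. Counting errors are square roots of counts and cover counting error only. The fit and the correlation test were tested on simulated data. The genes, lists, motifs and tests were chosen with earlier results of these data known. Named genes were the 6 genes, the 2 listed genes with the highest within-group r to each, and listed genes of the pathway lists. The protocol speaks of 3 biological replicates with the most RNA, whereas 4 and 5 libraries were used here. Replicate numbers follow the sample titles; those in the descriptions differ. Same-numbered libraries correlated between 0.0122 and 0.263 by title number and between -0.381 and 0.238 by description number. These few values cannot decide whether the numbers pair the samples. Alternatives were TMM factors, DESeq2 1.42.0, limma-voom (limma 3.58.1), mean log2 values, other filters (none, or a mean of at least 10), no mitochondrially encoded genes, Spearman's rho, a pseudocount of 5, replicate blocks and each library left out. Gene identifiers and positions are those deposited with the counts. Exons, coding lengths and transcript positions are from GENCODE M21.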

Additional observations from a re-analysis of the deposited data

Results flagged for a closer look

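The normalized count of *Rad21* in Allograft replicate 2 was 698.6, against 793 to 825 in the other 4 Allograft libraries, and it lay farther from the rest than Dixon's critical value for 5 samples allows. It was 1 of 12 group-by-gene sets of the 6 genes to do so, and 11 of 194 sets (5.67%) did over all tested genes, while chance flags about 1 in 20. The fitted log2 fold change of *Rad21* without that library was 0.36.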

How the results depend on the processing

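The 108 refitted log2 fold changes of the 6 genes kept their sign, and 102 moved by less than 1 SD of the replicates. The other 6 came from TMM factors over the listed genes, which gave *H1f0* -0.78, *Sfpq* 0.21, *Rad21* 0.00899, *Kdm2b* -1.08, *Sinhcaf* 0.53 and *Zfp395* 0.54. With those factors 3 of the 6 genes had no overlap between groups, and no share over all tested genes was computed. TMM on selected genes carries the selection into the scaling. All refits reused the counts that chose the genes, and all but TMM used the authors' size factors. The kept signs are therefore no separate support for the group differences.

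Leaving out each library in turn gave ranges of -0.52 to -0.43 for *H1f0*, 0.48 to 0.63 for *Sfpq*, 0.29 to 0.37 for *Rad21*, -0.88 to -0.62 for *Kdm2b*, 0.74 to 0.92 for *Sinhcaf* and 0.78 to 0.95 for *Zfp395*. Removing a library cannot make separate groups overlap, so the 6 genes stayed without overlap by construction. The median r of the pairs ran from -0.16 to 0.20, and was 0.10 with TMM, 0.13 by Spearman's rho, 0.07 with a pseudocount of 5 and 0.23 relative to the mean deviation of all genes. The median CV over the 12 sets of gene and group was 10.3%, and 11.0% with TMM.

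A replicate block by title number gave -0.47, 0.57, 0.31, -0.71, 0.90 and 0.77 for *H1f0*, *Sfpq*, *Rad21*, *Kdm2b*, *Sinhcaf* and *Zfp395*, and by description number -0.41, 0.43, 0.26, -0.59, 0.97 and 0.72. Whether the numbers pair the samples is not known here.

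With 9 libraries and unknown total depth, small differences such as that of *Rad21* depend on the scaling. The number of counts limits *Sinhcaf* the most.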

Other observations

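The within-group deviations of the 6 genes were also set against the log2 size factor of the libraries. Pearson r ran from -0.16 (*Kdm2b*) to 0.62 (*Rad21*), and for *Rad21* Spearman's rho was 0.73 (exact permutation p = 0.123 and 0.0646, adjusted p over all tested genes 0.897 and 0.696). Without the 2 libraries farthest from the median size factor, r was 0.76 for *Rad21*, -0.73 for *Kdm2b* (-0.16 over all 9) and 0.58 for *Sfpq* (0.16 over all 9), and for *H1f0*, *Sinhcaf* and *Zfp395* it was 0.27, 0.18 and 0.44. The values of *Kdm2b*, *Sfpq* and *Zfp395* (-0.13 over all 9) therefore depend on those 2 libraries. None of the 6 relations passed over the 9 libraries, which does not show that the genes are unrelated to the size factor.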
